A study of Mus musculus with 6 samples.

Results

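The genes described here encode the eukaryotic translation initiation factors of mouse natural killer (NK) cells. They were taken as protein-coding genes whose symbol starts with Eif followed by a digit from 1 to 6, without those on X or Y and without Eif2ak2. The rule found 51 of 50686 genes in the count table, and 50 of the 51 had enough counts to be tested. Eif4e1b, an oocyte-type relative of the cap-binding gene Eif4e, had 0 counts in every library and was not tested. The data are bulk RNA sequencing of splenic NK cells, innate lymphocytes that kill transformed and infected cells, in 6 libraries.

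Both groups were C57BL/6J mice. The WT group (3 libraries) came from healthy mice. The Eumyc group (3 libraries) came from mice injected intravenously with Eumyc lymphoma, in which a Myc transgene drives malignant B cells, and their spleens were taken at day 14. The labels give the WT mice as wild type and name no genotype for the Eumyc hosts. In both groups B cells were depleted with the 1D3 antibody and anti-rat beads, CD49b beads were used for enrichment, and NK1.1+TCRb- cells were sorted. For Eumyc the CD49b-negative fraction was sorted as well as the positive fraction, so effects of the sort and of the lymphoma cannot be told apart anywhere in these data. The labels do not say that the 3 libraries of a group came from separate animals. The p-values therefore measure only the spread between these libraries, which may be technical.

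Initiation places a ribosome at the start codon of an mRNA. The factor eIF2 carries the initiator tRNA to the small ribosomal subunit, which eIF1, eIF1A, eIF3 and eIF5 prepare for scanning, while eIF4E binds the mRNA cap, eIF4G joins it to eIF3, and the helicase eIF4A unwinds the leader. eIF2B recharges eIF2 with GTP, kinases switch eIF2 off under stress, 4E-binding proteins hold eIF4E back, and eIF5B joins the large subunit. Resting NK cells translate little, and activation by cytokines is known to raise their protein synthesis. Myc is a transcription factor that binds the hexamer CACGTG and is known to act on genes of translation.

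Promoter sequence is shown first, read for that hexamer. Whether Myc has a part in the differences between the groups was not tested. RefSeq promoters (GRCm38.p6, from 250 bases before to 50 bases after the start) were matched by symbol for 39 of the 51 genes. CACGTG reads the same on both strands, and at least 1 copy lay in a promoter of 10 of the 39 genes (25.6%). Among tested genes with a promoter entry 11.3% of 10183 held it, and among all 27025 genes 8.09% did. These shares were not compared by a test. The members' promoters had a median GC content of 62.5%, close to the 60.3% of tested genes, against 52.7% for all promoters. A match is a description of letters and not a binding site. Some of the 60-base windows around the hexamer are printed, all without an annotated exon base, and that of Eif3k, also without one, is not. The printed windows read 5′ to 3′ on the gene's strand, with CACGTG in capitals. They are chosen to set genes that were higher in Eumyc beside Eif5a2, which was lower.
Eif5a, chr11:69921428-69921487, minus strand: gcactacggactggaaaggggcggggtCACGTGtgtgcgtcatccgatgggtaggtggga
Eif4a1, chr11:69672580-69672639, minus strand: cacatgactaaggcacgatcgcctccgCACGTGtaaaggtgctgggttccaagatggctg
Eif4g1, chr16:20672646-20672705, plus strand: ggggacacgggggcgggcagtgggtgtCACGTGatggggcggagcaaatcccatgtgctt
Eif3f, chr7:108934320-108934379, plus strand: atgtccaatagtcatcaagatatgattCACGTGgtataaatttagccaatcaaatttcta
Eif5a2, chr3:28781108-28781167, plus strand: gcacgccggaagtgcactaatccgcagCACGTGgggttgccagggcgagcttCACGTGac
Counted in bases from the annotated start, the printed hexamer lay at -74 for Eif5a and at -189 for Eif4a1. It lay at -54 for Eif4g1 and at -68 for Eif3f. For Eif5a, 2 overlapping promoter entries share the printed copy, which lies at -185 from the start of the other. A separate Eif5a entry held a further copy at -178, and the Eif4g1 promoter held one more at 16. Those 2 windows contain exon bases and are not printed. Eif5a2 held 2 copies, at -142 and -117, within the printed window. Of the 10 genes with a match, 8 were called higher in Eumyc, 1 lower (Eif5a2) and 1 not called (Eif1b). Of the 29 without, 14 were higher, 3 lower and 12 not called. The 3 lower genes without a match were Eif4a2, Eif1 and Eif4ebp2. Of all tested genes 25.7% were called higher and 23.1% lower, and those shares were not counted separately with and without the hexamer. Whether the calls differ with the motif was not tested.

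Most initiation factor genes were higher in Eumyc, by small amounts. Tested with edgeR's quasi-likelihood test (adjusted p under 0.05 over all 15458 tested genes), 30 of the 50 tested members were higher in Eumyc (60%), against 25.7% of all tested genes. Lower in Eumyc were 4 (8%), against 23.1%, and 16 were not called, in a comparison that called 48.8% of all genes in either direction. All Eumyc libraries lay above all WT libraries for 33 members (66%, against 31.3% of genes) and below them for 6 (12%, against 28.9%). The median log2 fold change over the 50 was 0.25, against -0.005 over all genes. Their range ran from -0.95 (Eif4ebp3, not called) to 0.72. Tested against a change of 1.5-fold, 0 members passed by edgeR, against 11.8% of genes, and 3 had an unadjusted p under 0.05. By DESeq2 and by limma 0 members passed too, and the share of all genes was not counted for those tools. The fitted change exceeded 1.5-fold upward for 4 members and downward for 2. With WT library 3 left out, 2 members passed the 1.5-fold test, Eif2s1 (log2 fold change 0.83) and Eif5a (0.85). The share of all genes past 1.5-fold was not counted in that fit.

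**Figure D1:**
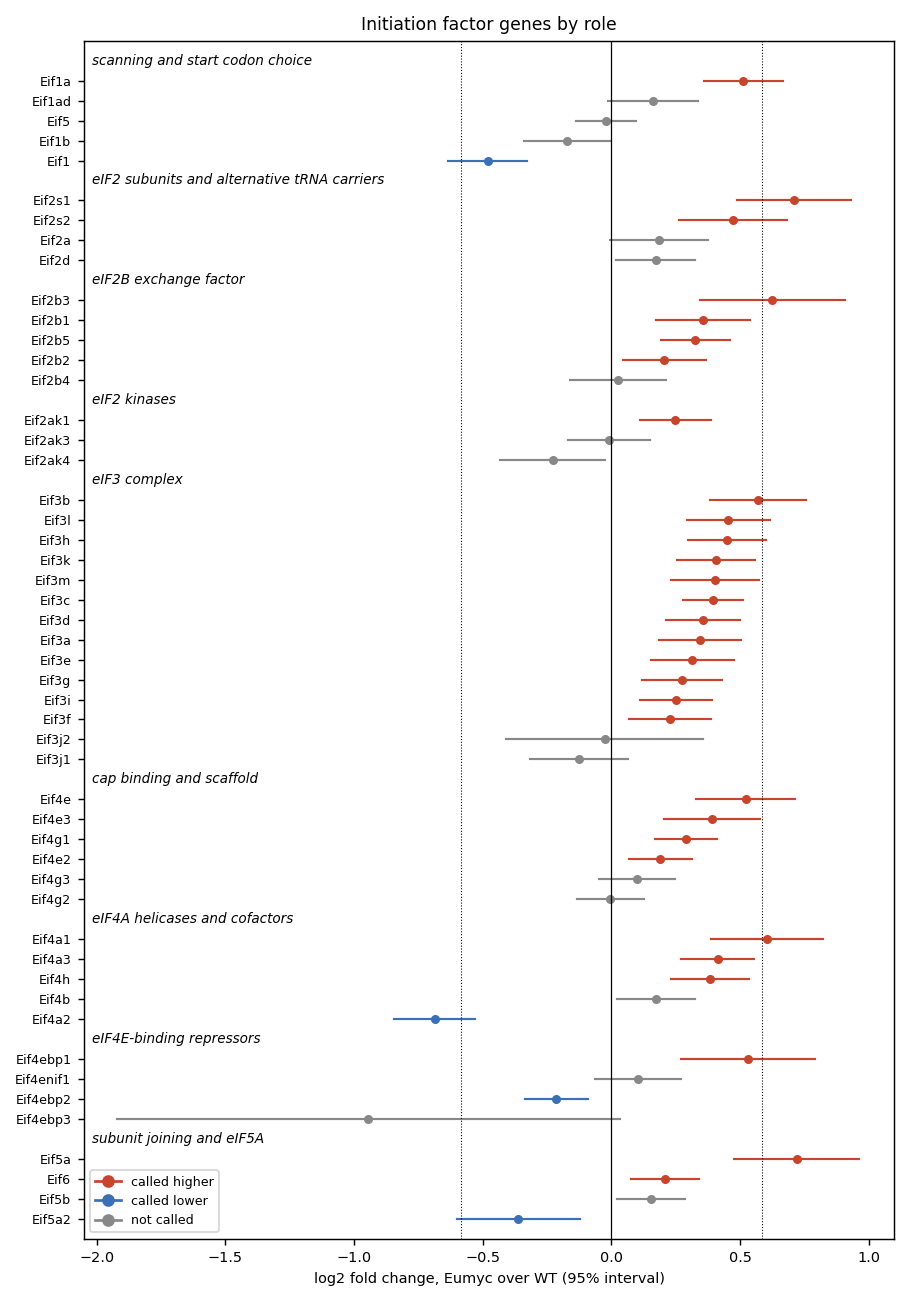
Log2 fold change (Eumyc over WT, x axis) of the 50 tested initiation factor genes, ordered within roles, with 95% intervals as bars and dotted lines at 1.5-fold. Of 14 eIF3 genes, 12 are called higher, while Eif4a2 (-0.69) and Eif1 (-0.48) lie on the other side of 0.

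The scanning factors differed among themselves. Eif1, which keeps the ribosome scanning until a good start codon is met, had 320, 342 and 315 TMM-scaled CPM (read counts scaled to library depth) in the WT libraries and 251, 218 and 231 in the Eumyc libraries. Each Eumyc library was below each WT library, and Eif1 (chr11:100319885-100322096, mm10 coordinates as in the count table, as for the genes below) fell by 0.48 on the log2 scale (SE 0.07, edgeR adjusted p = 0.000827). Eif1 shares 19.2% of its 50-base stretches with transcripts of other genes, so some of its reads may be assigned elsewhere. Eif1a, whose protein works beside eIF1 on the same subunit, had 51.7, 51.0 and 57.0 CPM in WT and 77.8, 72.8 and 77.1 in Eumyc. It was separated in the other direction, with a log2 fold change of 0.51 (SE 0.07, edgeR adjusted p = 0.000644). Eif5, the factor that makes eIF2 hydrolyse its GTP at the start codon, had 369, 373 and 353 CPM in WT and 356, 362 and 362 in Eumyc. Its groups overlapped, and the 95% interval of its log2 fold change ran from -0.14 to 0.10. Eif1b and Eif1ad were not called.

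Genes of eIF2 itself were among the largest changes. Eif2s1 encodes the alpha subunit, the site at which stress kinases phosphorylate eIF2. Its CPM were 71.1, 65.7 and 86.2 in WT and 120, 117 and 127 in Eumyc (chr12:78861819-78887010). The groups were well separated, with a log2 fold change of 0.71 (SE 0.10, edgeR adjusted p = 0.000739). The beta subunit gene Eif2s2 went from 58.4, 52.2 and 60.7 CPM to 75.0, 73.9 and 88.6, again without overlap and with a log2 fold change of 0.47 (SE 0.09, edgeR adjusted p = 0.00347). Eif2s2 shares 10.3% of its stretches with other genes, mostly Gm9892. The alternative tRNA carriers Eif2a and Eif2d had values of 0.18 and 0.17 and were not called.

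Of the 5 genes of eIF2B, the exchange factor for eIF2, 4 were higher and Eif2b4 was not called (0.03). Eif2b3, the gamma subunit, was the least abundant, with 6.89, 6.65 and 7.85 CPM in WT and 11.2, 10.2 and 11.5 in Eumyc. The groups were apart, with a log2 fold change of 0.62 (SE 0.12, edgeR adjusted p = 0.00383). Eif2b1, Eif2b2 and Eif2b5 had log2 fold changes of 0.36, 0.21 and 0.33. Eif2b2 (edgeR adjusted p = 0.0385) kept its call in 7 of the 16 alternatives tried, so 3 or 4 of the 5 genes were higher in them.

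Among the eIF2 kinases the values were small. Eif2ak3, which encodes PERK, the kinase of endoplasmic reticulum stress, had 43.4, 46.4 and 41.8 CPM in WT, and the Eumyc libraries had 45.3, 42.8 and 43.0. The groups overlapped and the 95% interval of the log2 fold change ran from -0.17 to 0.15. Eif2ak4, which encodes GCN2, the sensor of amino acid shortage, had 28.4, 32.7 and 27.5 CPM in WT and 24.9, 25.8 and 25.1 in Eumyc. All Eumyc values were lower, yet the log2 fold change of -0.23 (SE 0.09) missed the threshold (edgeR adjusted p = 0.0628). The authors' deposited table gives it an adjusted p of 0.0429. Eif2ak1, which encodes the haem-regulated kinase HRI, was called higher (0.25).

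The eIF3 complex, the largest of these assemblies, was higher in most of its genes. Of 14 genes 12 were called higher and 2 were not called, with a median log2 fold change of 0.35. In the alternatives tried, 11 or 12 of the 14 were higher. Eif3b, a subunit of the complex core, had 179, 171 and 211 CPM in WT and 266, 280 and 286 in Eumyc. Its log2 fold change was the highest of the complex, 0.57 (SE 0.08, edgeR adjusted p = 0.000948), with no overlap of groups. Eif3a, the scaffold of the complex, went from 354, 316 and 369 to 427, 436 and 455 CPM, separated by less in relative terms, with a log2 fold change of 0.34 (SE 0.07, edgeR adjusted p = 0.00416). Eif3l, an outer subunit, had 126, 116 and 127 CPM in WT and 161, 161 and 184 in Eumyc, and was separated with a log2 fold change of 0.45 (SE 0.07, edgeR adjusted p = 0.00132). The remaining 9 called genes (Eif3c, Eif3d, Eif3e, Eif3f, Eif3g, Eif3h, Eif3i, Eif3k and Eif3m) lay between 0.23 and 0.45. The uncalled genes Eif3j1 and Eif3j2 had values of -0.13 and -0.03. Eif3j2 shares 91.8% of its 50-base stretches with other genes, mostly Eif3j1, so reads of the pair cannot be assigned reliably to either gene. Eif3d shares 37.2% of its stretches with other genes, mostly the antisense gene Gm17638, which cannot be told apart where counting ignores strand. For Eif3h the share is 20.3%, for Eif3m 18.4%. Eif3f kept its call in 10 of the 16 alternatives.

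At the cap, the gene for eIF4E rose with its scaffold. Eif4e, which encodes the factor that binds the mRNA cap, had 40.3, 40.5 and 47.7 CPM in WT and 62.1, 58.4 and 63.7 in Eumyc. There was no overlap, and the log2 fold change was 0.52 (SE 0.08, edgeR adjusted p = 0.00151). Eif4g1, the main scaffold, had 496, 508 and 519 CPM in WT and 624, 623 and 616 in Eumyc. Every Eumyc library exceeded every WT library, with a log2 fold change of 0.29 (SE 0.05, edgeR adjusted p = 0.00253). The related scaffolds Eif4g2 (-0.00) and Eif4g3 (0.10) were not called, while the cap-binding relatives Eif4e2 (0.19) and Eif4e3 (0.39) were higher. Eif4e2 kept its call in 13 of the 16 alternatives. Eif4e3 shares 12.4% of its 50-base stretches with other genes, mostly Gm20696 on the same strand.

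The helicase genes Eif4a1 and Eif4a2 moved in opposite directions. Both encode eIF4A, the helicase that unwinds mRNA leaders, and are closely related. Eif4a1 had 221, 203 and 266 CPM in WT and 351, 336 and 361 in Eumyc (chr11:69666936-69672423). Its groups were apart, with a log2 fold change of 0.60 (SE 0.10, edgeR adjusted p = 0.00138). Eif4a2 (chr16:23107444-23114136) had 541, 637 and 586 CPM in WT and 367, 368 and 360 in Eumyc. It was the largest fall among the members called, by 0.69 on the log2 scale (SE 0.07, edgeR adjusted p = 0.000263), and again no library overlapped.

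Within each library the Eif4a1 share of the summed counts of the pair was 29.0%, 24.1% and 31.2% in WT and 48.9%, 47.7% and 50.03% in Eumyc. The means were 28.1% ± 3.62 and 48.9% ± 1.14 (SD, n = 3). The log2 ratio differed by 1.30, with a two-sided exact permutation p = 0.1, the smallest that 3 against 3 allows. Per kilobase of exon the ratio of the CPM values went from 0.485 to 1.18. Eif4a1 shares 28.4% of its 50-base stretches with other genes, mostly Eif4a-ps4, a processed pseudogene that itself had 55.1 CPM in WT and 99.7 in Eumyc. With its counts added to Eif4a1 the log2 ratio differed by 1.35. Eif4a2 overlaps snoRNA genes and shares 13.6% of its stretches with other genes, mostly Rfc4 on the opposite strand.

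**Figure D2:**
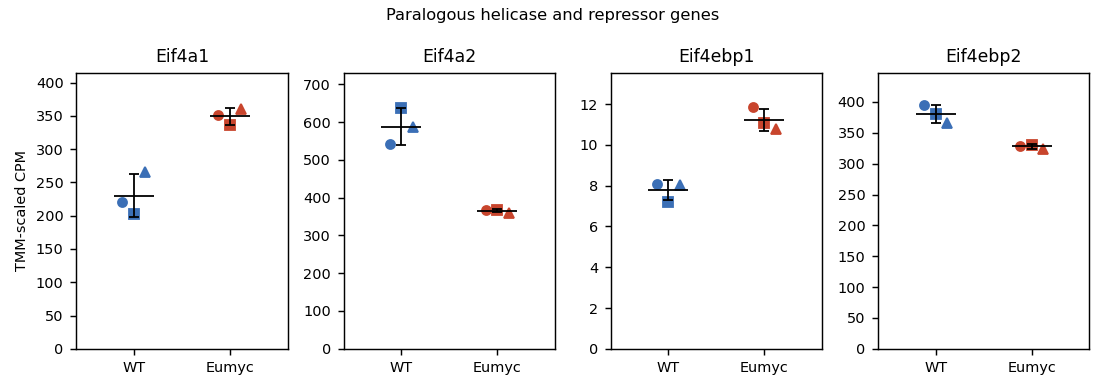
TMM-scaled CPM (y axis, from 0) of Eif4a1, Eif4a2, Eif4ebp1 and Eif4ebp2 in each library (circle, square and triangle for replicates 1, 2 and 3; blue WT, red Eumyc), with bars for the mean and SD of 3 libraries. Eif4a1 and Eif4ebp1 lie higher, and Eif4a2 and Eif4ebp2 lower, in all 3 Eumyc libraries.

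Of the partners of eIF4A, Eif4h was higher (0.38), as was Eif4a3 (0.41), a related helicase of the exon junction complex that shares 16.5% of its stretches with other genes. Eif4b, which encodes an activator of the helicase, had 497, 449 and 483 CPM in WT and 511, 529 and 571 in Eumyc. Its groups did not overlap, but with a log2 fold change of 0.17 (SE 0.07) it missed the threshold (edgeR adjusted p = 0.0608). In the authors' deposited table its adjusted p is 0.0317.

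The 4E-binding repressors also split. Eif4ebp1, the repressor that mTORC1 phosphorylates to release eIF4E, had 8.08, 7.22 and 8.03 CPM in WT and 11.8, 11.1 and 10.8 in Eumyc. It was higher in every Eumyc library, with a log2 fold change of 0.53 (SE 0.11, edgeR adjusted p = 0.00565). Its relative Eif4ebp2 was far more abundant, with 395, 380 and 365 CPM in WT and 329, 330 and 324 in Eumyc. Eif4ebp2 fell by 0.21 on the log2 scale (SE 0.05, edgeR adjusted p = 0.0110), with groups apart. Without WT library 1 its edgeR adjusted p was 0.0527.

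The Eif4ebp1 share of the counts of the pair was 2.00%, 1.87% and 2.15% in WT and 3.47%, 3.24% and 3.22% in Eumyc (n = 3 libraries each). Per kilobase of exon, the ratio of Eif4ebp1 to Eif4ebp2 averaged 0.0539 in WT and 0.0902 in Eumyc, so Eif4ebp2 was the more abundant in both. The log2 ratio differed by 0.74 (two-sided exact permutation p = 0.1, the smallest possible). Eif4ebp3, another repressor, lay near the filter, at means of 0.73 and 0.38 CPM, and was not called. It shares 65.5% of its 50-base stretches with other genes, mostly AC115631.1 on the same strand. Eif4enif1, the carrier that moves eIF4E into the nucleus, was not called (0.10).

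For the last steps, Eif5a stood out. Its protein carries the hypusine modification and helps ribosomes through difficult stretches during elongation and termination. It had 331, 297 and 400 CPM in WT and 533, 556 and 603 in Eumyc (chr11:69916714-69921958). The groups were separated, with a log2 fold change of 0.72 (SE 0.11, edgeR adjusted p = 0.00106), the highest of the 50. Eif5a2, the rarer isoform gene, had 19.6, 17.5 and 19.7 CPM in WT and 14.3, 16.1 and 13.8 in Eumyc. It was lower in every Eumyc library and fell by 0.36 on the log2 scale (SE 0.10, edgeR adjusted p = 0.0208). Leaving out WT library 1, Eumyc library 1 or Eumyc library 3 gave edgeR adjusted p of 0.0717, 0.0686 and 0.0851, with log2 fold changes of -0.33, -0.33 and -0.31.

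Eif6, an antiassociation factor for the large subunit, had 83.4, 79.7 and 85.5 CPM in WT and 95.3, 92.1 and 99.5 in Eumyc. It was higher throughout, by 0.21 (SE 0.06, edgeR adjusted p = 0.0176). Without WT library 2 or Eumyc library 3 its edgeR adjusted p was 0.0612 or 0.0581. Eif5b, the subunit-joining factor, had 120, 111 and 124 CPM in WT and 134, 128 and 133 in Eumyc. No library overlapped, though the log2 fold change of 0.15 (SE 0.06) was not called (edgeR adjusted p = 0.0541). In the authors' deposited table its adjusted p is 0.0473. Eif5b shares 14.3% of its 50-base stretches with other genes, mostly Rev1 on the opposite strand.

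**Figure D3:**
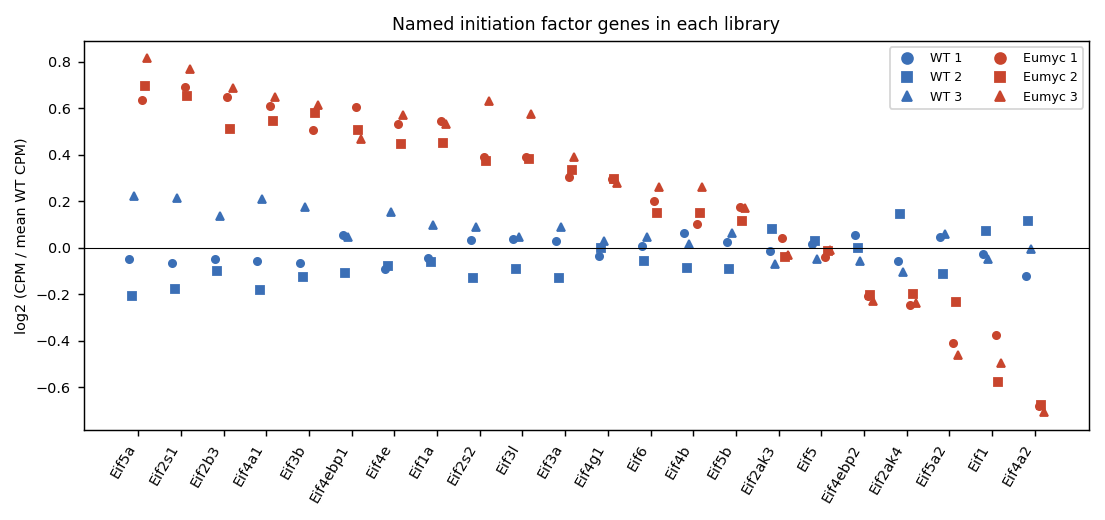
Log2 of each library's CPM over the mean WT CPM (y axis) for 22 initiation factor genes (x axis), with shapes for replicate 1, 2 or 3, blue for WT and red for Eumyc. WT 3 lies above the other WT libraries for most of the genes that are higher in Eumyc, and Eif2ak3 and Eif5 show overlapping groups.

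The order of abundance changed among the members. Per kilobase of exon, the highest in WT were Eif1 (155 CPM per kilobase), Eif5a (144), Eif3f (137), Eif3h (134) and Eif4a2 (110). In Eumyc they were Eif5a (237), Eif3h (183), Eif3f (160), Eif4b (120) and Eif1 (111), and Eif4a2 stood at 68.4. In WT, Eif5a had an SD of 21.96 and Eif3f one of 11.9 over 3 libraries, so neighbours among the first 4 genes do not differ beyond their spread. Eif1 (SD 6.86) did lie above Eif3h (SD 8.72) by more than their spread. In Eumyc, Eif5a with an SD of 14.9 lay above Eif3h with one of 8.93. The last place named in each group was not resolved. In WT, Eif4g2 (108) lay within the SD of Eif4a2 (9.03). In Eumyc, Eif4g2 (108) lay within the SD of Eif1 (7.84), and Eif4b (SD 6.88) and Eif1 overlapped in spread. Exon length is the union over annotated transcripts and overstates the length of genes with rare long forms.

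Other genes of translation were read from fixed lists, beside 25.7% of all tested genes called higher and 23.1% called lower. Of 15 elongation and termination factors 12 were higher and 2 lower (median log2 fold change 0.43), including Etf1, the release factor, at 0.76 and Pelo, a ribosome rescue factor, at 0.81. Among 20 cytosolic aminoacyl-tRNA synthetases, which charge tRNAs, 15 were higher and 5 were not called (median 0.37, Aars 0.73). Of 72 cytosolic ribosomal protein genes, a symbol-based list that also holds Rps19bp1, 51 were higher and 2 lower (median 0.34, Rps2 0.82). These medians and the initiation factors' 0.25 were not compared by a test.

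Among genes of mTORC1 and MAPK control and of eIF2 phosphorylation more were lower than higher. Of 15 genes of mTORC1 and MAPK control 2 were higher and 7 lower (median -0.11), beside 25.7% and 23.1% of all tested genes. That list mixes activators and inhibitors, so its counts and median give no direction for the pathway. Pdcd4, which encodes an inhibitor of eIF4A, went from a mean of 408 to 280 CPM, a fall of 0.54 on the log2 scale (SE 0.07, edgeR adjusted p = 0.000759). Rps6, the ribosomal protein that S6 kinase phosphorylates, was higher (0.54). Of 8 genes around eIF2 phosphorylation 4 were lower and 4 not called (median -0.14). Ppp1r15a, whose product GADD34 helps to dephosphorylate eIF2 alpha, went from 37.0 to 15.4 CPM, a fall of 1.27 (SE 0.13, edgeR adjusted p = 0.000263), and Ddit3, the stress transcription factor CHOP, fell by 0.81. Of 12 genes of poly(A) binding and hypusine formation and their partners 7 were higher and 3 lower (median 0.23), with Bzw2, an eIF5 mimic, at 0.50.

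**Figure D4:**
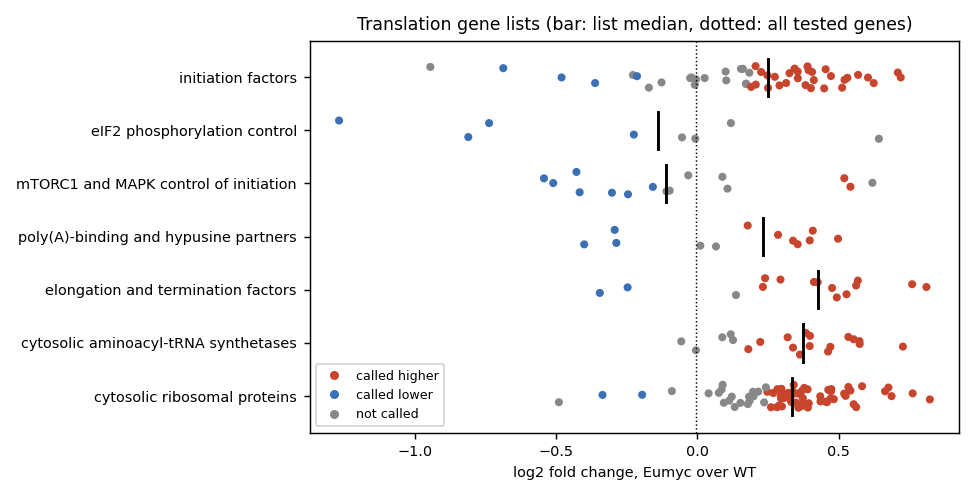
Log2 fold change (Eumyc over WT, x axis) of each tested gene in 7 translation lists (rows; red called higher, blue called lower, grey not called), with a bar at each list's median and a dotted line at the median of all tested genes. The initiation factors' median is 0.25, that of elongation and termination factors 0.43, and that of eIF2 phosphorylation control -0.14.

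Libraries differed in depth and in transcripts of cell division. Total gene counts ran from 16407611 to 36534191 in WT and from 44456157 to 66615602 in Eumyc, and log2 CPM correlated (Pearson) at 0.978 to 0.992 inside a group and at 0.926 to 0.958 across groups. All 16 cell division genes tested were higher in Eumyc (median log2 fold change 3.50). WT library 3 held 1097 CPM of cell division transcripts against 563 and 518 in the other WT libraries and 2838 to 3963 in Eumyc. That library was above the mean of WT libraries 1 and 2 for 38 of the 50 members and for 29 of the 30 members called higher, against 49.96% of all tested genes. Eumyc library 1 was above the mean of Eumyc libraries 2 and 3 for 0 of the 16 cell division genes. It was above that mean for 24 of the 50 members and 15 of the 30 called higher, against 49.1% of all tested genes. The part of dividing cells in the members' levels was not tested. Without WT library 3, the median log2 fold change of the members was 0.30.

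Markers of other cells summed to more in Eumyc, though not every marker was called higher. Of all tested genes 25.7% were called higher. Summed markers ran, WT against Eumyc, from 194 to 206 against 299 to 693 CPM for B cells (9 of 10 higher), from 164 to 202 against 483 to 1097 for monocytes and macrophages (5 of 10) and from 374 to 409 against 474 to 529 for T cells (4 of 10). They ran from 14.9 to 33.8 against 61.8 to 73.3 for erythroid cells (8 of 9) and from 0.164 to 3.72 against 45.4 to 59.7 for neutrophils (9 of 9 tested). Pax5, a B cell identity gene, was at most 2.43 CPM in any library, and most of the B cell sum was Ighm. At 0 in every WT library were 3 neutrophil markers, and 0 markers were at 0 in all 6 libraries. NK markers ran from 14978 to 15135 CPM in WT against 13635 to 14695 in Eumyc, lower in every Eumyc library, with 1 of 10 markers called higher and 5 lower. The part of other cells in the members' differences was not tested. In bulk RNA, fewer cells with a transcript and less of it per cell cannot be told apart.

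**Figure D5:**
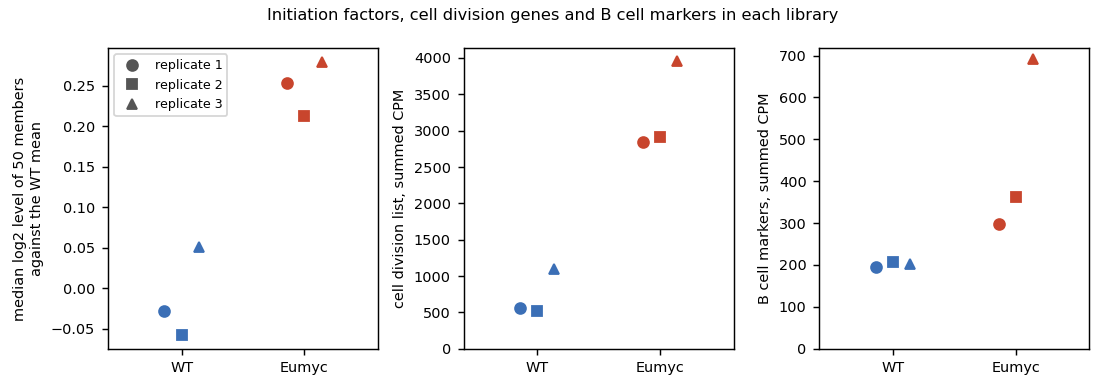
Median log2 level of the 50 members against the WT mean (left), summed CPM of 16 cell division genes (middle) and summed CPM of 10 B cell markers (right) in each library, by group on the x axis. WT 3 is the highest WT library for members and for cell division, and Eumyc 3 is the highest of all in the 3 panels.

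Some genes that the rule left out were also called higher, the pseudogene Eif4a-ps4 (log2 fold change 0.86, edgeR adjusted p = 0.000775) and 3 protein-coding genes. The pseudogenes Eif1-ps1, Eif3s6-ps1, Eif3s6-ps2 and Eif5al3-ps were tested and not called. Eif1ax, the X-linked relative of Eif1a, went from 61.9 to 84.0 CPM (log2 fold change 0.44, edgeR adjusted p = 0.00288), and Eif2s3x, the X-linked gamma subunit of eIF2, went from 44.5 to 55.6 (0.32, edgeR adjusted p = 0.00784). Eif2ak2, the kinase PKR, which interferon induces, rose from 47.0 to 64.9 CPM (0.47, edgeR adjusted p = 0.0231). In the authors' deposited table, 49 members are listed, of which 32 are higher and 5 lower at an adjusted p under 0.05. All 49 have the sign found here, with fold changes within 0.0302 on the log2 scale, and the 34 genes called here are called there too.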

How the data were processed

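The members, roles and gene lists were chosen with earlier results of these data known. Counts per gene are whole numbers deposited by the authors; STAR 2.5.2, HTSeq 0.6.1 and DESeq2 1.10.1 with mm10 and GRCm38 were used, per the submitters' processing notes. The sources used here give neither the strand setting nor the annotation release. Log2 fold changes and p-values of the authors' own comparison come from the authors' deposited table.

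The test was that of edgeR 4.0.16 (R 4.3.3) on genes passing filterByExpr (minimum count 10): TMM scaling, a quasi-likelihood fit on group alone, two-sided, Benjamini-Hochberg over 15458 genes, called under an adjusted p of 0.05. The biological coefficient of variation was 0.137. Standard errors come from the F statistic. CPM of a gene are TMM-scaled; list sums are CPM of all gene counts. The fit was tested on simulated data.

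Values in every library are given for the 10 highest and up to 6 lowest called members whose higher group averaged 10 CPM or more, and for 16 members whatever their result, 22 in all. Of the other lists, up to 2 called genes with the largest change were named. Exon lengths and 50-base stretches shared with other genes' transcripts came from GENCODE M21. Alternatives were other scalings, no filter, 3 CPM in 3 libraries, thinning, leaving out each library, a replicate block, limma 3.58.1 (voom, also with quality weights) and DESeq2 1.42.0. DESeq2 and limma fold tests and the pseudogene sum were chosen after seeing the data. Same-group libraries differed beyond sampling noise (chi-square per degree of freedom of at least 8.46).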

Additional observations from a re-analysis of the deposited data

Results flagged for a closer look

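Eif2s3y, the Y-linked gene for the gamma subunit of eIF2, lay outside the rule and was looked at because it had counts in data that no comparison used. It had 0 counts in every WT library and 6, 5 and 10 in the Eumyc libraries, 21 in all. Against the limit that 3 counts over the WT group allow (0.0373 CPM of all gene counts), the observed 0.119 CPM of the Eumyc group is 3.19-fold higher. That limit covers only the counting error of the WT group. The counting error of the 21 Eumyc counts is not included, so the ratio is not a lower limit.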

How the results depend on the processing

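In 16 alternatives 27 to 33 members were called higher, beside 3252 to 4284 of all tested genes (3973 in the main fit). The number of genes tested ran from 11077 to 25212. Of 22 named members, 14 kept direction and side of the threshold in all. Of all members, 26 of 30 higher, 2 of 4 lower and 9 of 16 uncalled kept their call. Leaving out each library gave 2 (without WT 1) to 5 members lower, beside 2616 to 3623 of all tested genes (2762 without WT 1). The member median was then 0.235 to 0.303 (without WT 3), and 0 to 2 members passed 1.5-fold (2 without WT 3). All genes past 1.5-fold were not counted in these fits, and the cause was not tested.

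Near 0, signs turned. Eif2ak3 was 0.016 with no filter, 0.0093 when thinned and -0.034 to 0.043 leaving out each library. Eif5 was 0.0040 with no filter and -0.036 to 0.0038 leaving out each library. When thinned, Eif5a2 lost its call (edgeR adjusted p = 0.0718). Eif4b was called by DESeq2 (adjusted p = 0.0374), with no filter (0.0415) and without Eumyc 1 (0.0488). Eif2ak4 was called in 6 of 16 alternatives: limma-voom (adjusted p = 0.0388) and with quality weights (0.0429), total counts (0.0389), upper quartile (0.0381), 3 CPM in 3 libraries (0.0451) and without WT 3 (0.0404). Eif5b was called without WT 3 (edgeR adjusted p = 0.0314).

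Pairing was looked at in each library's deviations from its group's gene means. Deviations of same-numbered libraries correlated (Pearson) at 0.040, 0.099 and 0.126, not all over 0.1, so numbers were not treated as pairs. Even so, each library's deviations correlated best with those of its own number. With a replicate block, 33 members were higher and 5 lower, beside 4176 and 3684 of all tested genes. The member median was then 0.249, and Eif4b (edgeR adjusted p = 0.0353) and Eif5b (0.0279) were called. The median of all genes moved at most to 0.090 (no filter) and -0.045 (upper quartile). Eif4ebp3, at most 1.00 CPM in each library, is limited by low counts and by the 65.5% of its 50-base stretches shared with other genes.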
